A study of Mus musculus with 16 samples.

Results

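Lef1, Tcf7, Bcl11b, Satb1, Ccr7, Il7r and Dapl1, 7 genes that mark naive T cells, were followed through bulk RNA sequencing of mouse peripheral blood mononuclear cells (PBMCs). They were chosen by gene symbol and make up 7 of the 51179 genes listed. All 7 were above 0 in each of the 16 libraries and entered the test. All mice were C57BL/6N. Chow mice (n = 5 libraries) ate regular chow. HFD+L-NAME mice (n = 5) received a high-fat diet with L-NAME, an inhibitor of endothelial nitric oxide synthase (eNOS), for 15 weeks, a regimen used to model heart failure with preserved ejection fraction. The NO2-OA group (HFD+L-NAME+NO2-OA, n = 6) received the same diet and inhibitor and, over the last 4 weeks, NO2-OA, nitro-oleic acid, a nitrated fatty acid. Cells of all groups were isolated on Ficoll, treated with red cell lysis buffer, frozen and thawed before total RNA was extracted. Neither the age nor the sex of the mice is given in the sources used here. The labels do not say that each library is a separate mouse, so the p-values below measure the spread between these libraries, part of which may be technical.

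Naive T cells leave the thymus and circulate between blood and lymph nodes until they meet antigen. TCF-1, the product of Tcf7, and LEF-1 are related DNA-binding proteins that keep T cells in a naive or memory-like state. Bcl11b commits progenitors to the T lineage, and Satb1 organises chromatin in developing and naive T cells. Ccr7 is the chemokine receptor that draws naive T cells into lymph nodes along CCL19 and CCL21, and Il7r is the receptor chain for interleukin-7, which keeps them alive between encounters. Several of these genes are also used outside T cells: Ccr7 by B cells and mature dendritic cells, Il7r by innate lymphoid cells, and Satb1 by other blood lineages. In bulk RNA, fewer cells of a type and less RNA per cell cannot be told apart.

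Promoter windows of these genes reach from 250 bases before to 50 bases after an annotated start. They are shown because the 7 genes ranked the libraries alike, as described further on. Whether genes in general did so too was not tested. RefSeq sequences on GRCm38.p6, an older assembly than the mm39 named for these reads, held 14 such windows for 6 of the 7 genes. Each was searched on both strands for the TCF/LEF core CTTTGA, the STAT core TTCNNNGAA and the forkhead core TGTTTAC. STAT5 acts downstream of the interleukin-7 receptor, and forkhead factors of the FOXO family drive Il7r and Ccr7 in T cells. The 4 windows printed below, 5′ to 3′ on the strand of the gene, are those that held a match upstream of the start, with the match or its reverse complement in capitals. The windows lie at chr2:59484403-59484702 (plus strand) for Dapl1, chr12:108003365-108003664 (minus strand) for Bcl11b, chr15:9529827-9530126 (minus strand) for Il7r and chr3:131156044-131156343 (plus strand) for Lef1, the last at the most 3′ of 4 annotated Lef1 starts.
Dapl1 (forkhead core): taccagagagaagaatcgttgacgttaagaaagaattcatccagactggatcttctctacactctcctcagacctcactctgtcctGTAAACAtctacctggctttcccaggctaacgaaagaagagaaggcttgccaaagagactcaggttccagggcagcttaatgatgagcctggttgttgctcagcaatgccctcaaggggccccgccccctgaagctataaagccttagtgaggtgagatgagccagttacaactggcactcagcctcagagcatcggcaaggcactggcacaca
Bcl11b (TCF/LEF core): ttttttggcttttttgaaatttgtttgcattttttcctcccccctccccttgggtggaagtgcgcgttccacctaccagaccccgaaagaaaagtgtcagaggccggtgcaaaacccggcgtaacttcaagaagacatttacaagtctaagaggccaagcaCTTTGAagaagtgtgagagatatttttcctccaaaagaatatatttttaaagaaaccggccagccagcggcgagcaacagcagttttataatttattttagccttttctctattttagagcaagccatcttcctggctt
Il7r (STAT core): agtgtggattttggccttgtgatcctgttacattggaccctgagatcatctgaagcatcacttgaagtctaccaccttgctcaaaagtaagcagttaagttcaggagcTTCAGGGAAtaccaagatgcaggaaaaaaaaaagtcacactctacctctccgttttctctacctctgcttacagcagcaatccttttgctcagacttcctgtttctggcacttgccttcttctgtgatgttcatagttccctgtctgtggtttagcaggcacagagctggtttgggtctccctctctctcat
Lef1 (TCF/LEF core): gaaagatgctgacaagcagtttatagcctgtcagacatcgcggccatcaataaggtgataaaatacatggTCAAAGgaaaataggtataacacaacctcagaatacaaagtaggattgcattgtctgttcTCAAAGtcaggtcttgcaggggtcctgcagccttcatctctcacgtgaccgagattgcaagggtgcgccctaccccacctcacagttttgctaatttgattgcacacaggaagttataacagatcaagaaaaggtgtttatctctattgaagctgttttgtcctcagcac
The matches began 164 bases before the start in Dapl1, 89 bases in Bcl11b and 142 bases in Il7r, and the Lef1 window held 2. One further match, a forkhead core just after a Tcf7 start, is not shown. No window held matches to more than 1 of the motifs. CTTTGA occurred in 2 of the 14 windows and in 16.0% of all 32851 mouse windows, TTCNNNGAA in 1 of 14 and 8.30%, and TGTTTAC in 2 of 14 and 3.65%. A match describes these letters only.

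Libraries held between 4227783 and 21682714 reads recovered from the values, and 3 of them had under 25% of their TPM (a transcript level scaled to gene length and library total) in protein-coding genes: chow replicate 3, HFD+L-NAME replicate 5 and replicate 2 of the NO2-OA group. Genes of resident peritoneal macrophages, cells that PBMCs should lack, were high in replicates 1 and 2 of chow and in replicates 1 and 5 of HFD+L-NAME, where Alox15 stood at 86.0 to 175 TPM against at most 1.24 TPM elsewhere. For this report the libraries were split into 2 runs by the number in each library's name, run 1 holding the lower numbers. The labels name no runs, and where to cut the numbers was a choice made here. Run 2 holds the 4 libraries with peritoneal macrophage genes and replicate 2 of the NO2-OA group. What the runs stand for is not given in the sources used here. T cells were present by their markers in every library, with all 14 pan T cell genes above 0 throughout and a summed level between 245 and 1152 TPM.

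**Figure D1:**
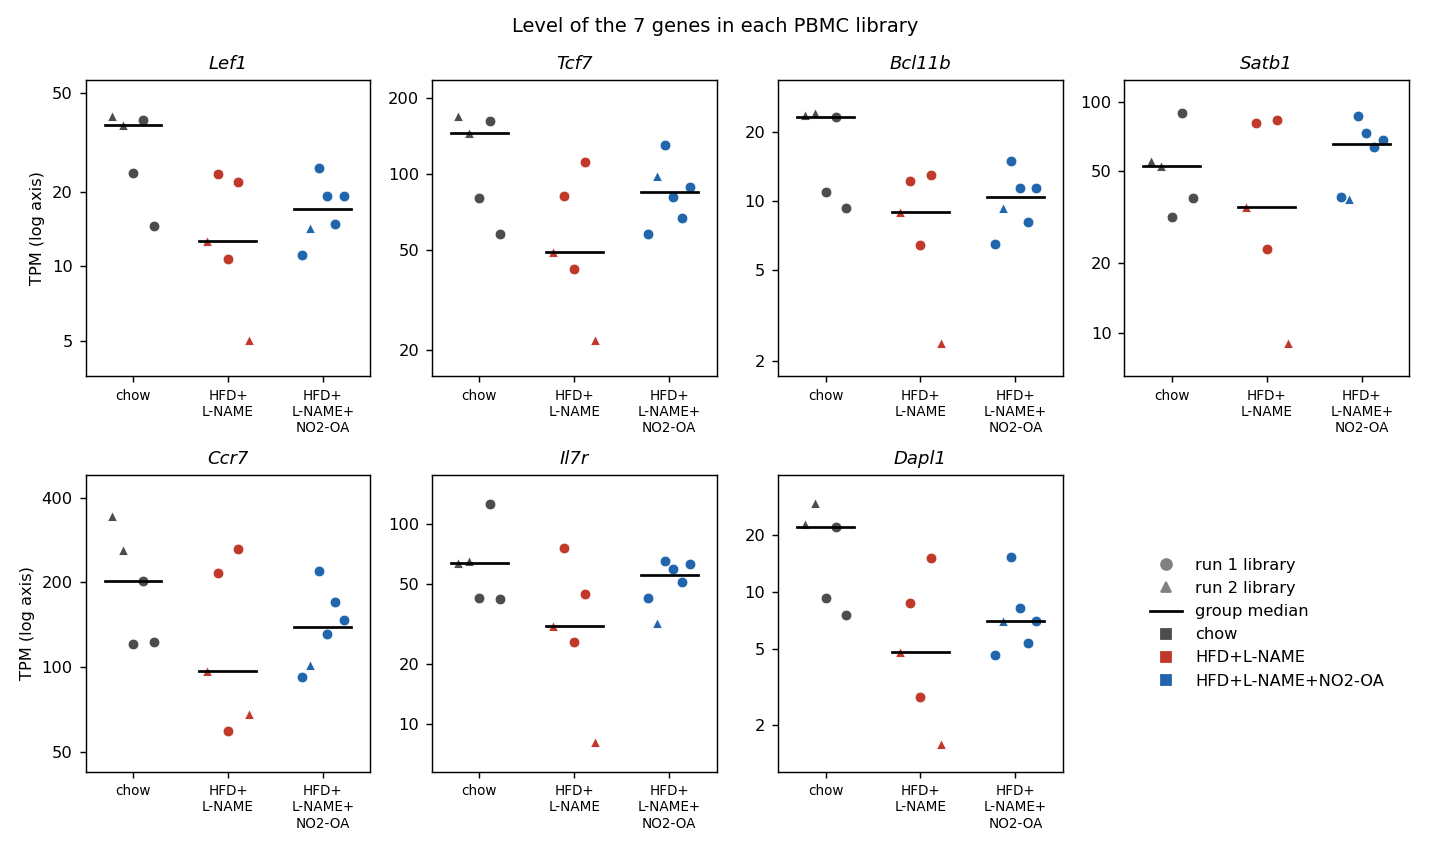
TPM of each gene in each library (log axis), by group, with circles for run 1, triangles for run 2 and a bar at the group median. Medians of HFD+L-NAME lay below those of chow in all 7 panels, with overlapping libraries in each.

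Among the transcription factors, Lef1 (ENSMUSG00000027985) stood at 40.5, 37.1, 23.8, 39.1 and 14.5 TPM in chow replicates 1 to 5 and at 12.7, 23.6, 10.7, 21.9 and 5.02 TPM in HFD+L-NAME replicates 1 to 5. In the NO2-OA group it ranged from 11.1 to 24.9 TPM with a median of 16.99 TPM. Chow replicates 1, 2 and 4 stood above all other libraries while replicates 3 and 5 overlapped the other groups, and every library of both regimen groups lay below the chow median of 37.1 TPM. Means were 31.0 ± 11.4 TPM (SD, n = 5) in chow, 14.8 ± 7.83 TPM (n = 5) in HFD+L-NAME and 17.2 ± 4.87 TPM (n = 6) with NO2-OA.

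Tcf7 (ENSMUSG00000000782) was at 169, 145, 80.1, 162 and 57.6 TPM in the chow libraries and at 48.8, 82.0, 41.8, 112 and 21.9 TPM in the HFD+L-NAME libraries. With NO2-OA it spanned 57.9 to 129.9 TPM, with a median of 84.9 TPM. All 5 HFD+L-NAME libraries were below the chow median of 145 TPM, and all 6 NO2-OA libraries lay between the medians of the other groups. Of the transcription factors it was the most abundant on the TPM scale.

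Bcl11b (ENSMUSG00000048251) was at 23.9, 24.3, 11.0, 23.3 and 9.38 TPM in chow and at 8.95, 12.3, 6.47, 13.0 and 2.41 TPM in HFD+L-NAME. Its range with NO2-OA was 6.52 to 15.1 TPM, around a median of 10.4 TPM. The same 3 chow libraries as for Lef1, replicates 1, 2 and 4, stood above all 11 libraries on the high-fat regimen, while chow replicates 3 and 5 lay among them.

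Satb1 (ENSMUSG00000023927) measured 55.2, 53.0, 31.7, 89.0 and 38.3 TPM in chow and 35.2, 81.0, 23.1, 83.3 and 9.07 TPM in HFD+L-NAME. In the NO2-OA group its lowest, median and highest levels were 38.0, 65.8 and 86.8 TPM. It followed another order from the other factors: HFD+L-NAME replicates 2 and 4 stood close to the highest chow library, and the median with NO2-OA was above that of chow. HFD+L-NAME replicate 5 was far below the other 15 libraries for this gene, the nearest of which was HFD+L-NAME replicate 3.

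Of the receptors, Ccr7 (ENSMUSG00000037944) was the most abundant of the 7 genes, at 345, 262, 121, 202 and 123 TPM in chow and 96.7, 217, 59.3, 263 and 68.1 TPM in HFD+L-NAME. Levels with NO2-OA ran from 92.3 to 219 TPM with a median of 139 TPM. HFD+L-NAME libraries split into 2 as high as chow, replicates 2 and 4, and 3 lower than any chow library.

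Il7r (ENSMUSG00000003882) stood at 63.4, 65.4, 42.3, 125 and 42.0 TPM in chow and at 30.8, 75.3, 25.7, 44.8 and 8.07 TPM in HFD+L-NAME. With NO2-OA the lowest level was 31.9, the median 55.3 and the highest 65.0 TPM. All 6 of those libraries lay above the HFD+L-NAME median of 30.8 TPM, and 5 of the 6 lay below the chow median of 63.4 TPM. The largest Il7r value of the study came from chow replicate 4.

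Dapl1 (ENSMUSG00000026989), a transcript enriched in naive T cells whose protein is known from zebrafish and frog eggs to bind dormant ribosomes, was the least abundant. It stood at 22.9, 29.6, 9.27, 22.1 and 7.58 TPM in chow and at 4.86, 8.77, 2.80, 15.1 and 1.58 TPM in HFD+L-NAME, and it ranged from 4.65 to 15.3 TPM with a median of 7.02 TPM under NO2-OA. Chow replicates 1, 2 and 4 were again above all other libraries. Its low values rest on few reads: 7 reads in HFD+L-NAME replicate 5, where the 95% Poisson interval spans 0.636 to 3.26 TPM, against 133 reads in chow replicate 2, with an interval of 24.8 to 35.1 TPM, and these intervals cover counting error only.

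Ordered by mean TPM over all libraries, Ccr7 (164 TPM) led Tcf7 (90.2 TPM), and each of these exceeded the next gene in 16 of 16 libraries. Satb1 (54.2 TPM) and Il7r (52.2 TPM) followed and could not be ordered, Satb1 being higher in 9 of 16 libraries. Lef1 came next at 20.8 TPM, above Bcl11b in all 16. Bcl11b (12.3 TPM) exceeded Dapl1 (10.8 TPM) in 13 of 16 libraries.

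The first comparison asks what the diet with L-NAME changes in blood cells. Every one of the 7 genes was lower on average in HFD+L-NAME than in chow, but none passed the test over all genes (limma on log2(TPM + 1), adjusted p = 0.816 for each), a threshold passed by 0.00611% of the 16365 genes tested. Dapl1 showed the largest difference, -1.47 ± 0.46 (SE) on the log2(TPM + 1) scale, and was 31st of all tested genes when these were ranked by p. Lef1, Tcf7, Bcl11b and Il7r differed by -1.10 ± 0.40, -1.08 ± 0.45, -1.07 ± 0.40 and -1.05 ± 0.47. The other members, Ccr7 and Satb1, differed by -0.71 ± 0.47 and -0.51 ± 0.49, with 95% intervals of -1.68 to 0.25 and -1.52 to 0.50 that include 0.

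At an unadjusted p under 0.05, 5 of the 7 genes (all but Ccr7 and Satb1) were lower, against 2.74% of all tested genes, and 0 were higher, against 0.189%, with 2.93% in either direction. The same 5 lay at -1 or lower, as did 0.923% of all genes. Most genes leaned the same way: 82.1% of all tested genes lay below 0, with a median of -0.29, against a median of -1.07 for the 7. In none of the 7 did the groups separate, while 0.11% of tested genes were lower in HFD+L-NAME with no overlap. When libraries were rescaled by the median of ratios, which brings the median of all genes to 0.02, the 7 lay between -1.16 and -0.12, with the same 5 at an unadjusted p under 0.05, where 2.21% of all genes were lower and 1.75% higher. Library quality weights gave adjusted p-values under 0.05 to all members except Satb1 (limma, 0.00149 to 0.0219, with Satb1 at 0.0506), but called 2821 genes in all and put a weight of 8.60 on HFD+L-NAME replicate 1 against 0.218 to 0.640 on the other 4 libraries of that group.

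**Figure D2:**
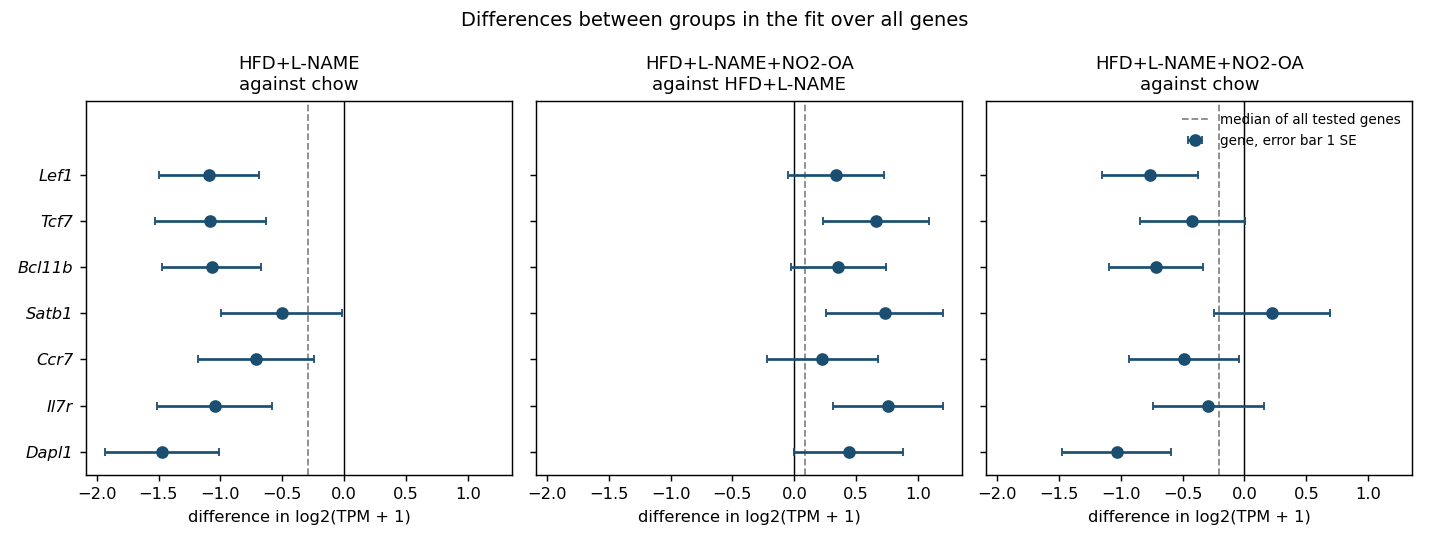
Differences in log2(TPM + 1) between groups for each gene (points, with bars of 1 SE), the dashed line marking the median of all tested genes. In HFD+L-NAME against chow the points lie between -1.47 and -0.51, and in the NO2-OA group minus HFD+L-NAME between 0.22 and 0.76.

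Within run 1 alone, in 3 against 3 libraries, the differences were smaller: the genes lay between -0.59 (Dapl1) and 0.17 (Satb1), with a median of -0.38 where the median of all genes was 0.13, and 0 of 7 reached an unadjusted p under 0.05, where 1.04% of all genes were lower and 1.21% higher. Within run 2, in 2 against 2 libraries, they lay between -2.80 (Dapl1) and -1.53 (Satb1), the median of all genes being -0.92. There 7 of 7 had an unadjusted p under 0.05, where 13.3% of all genes were lower and 0.794% higher. Dapl1 had an adjusted p of 0.0112 (limma) among 113 genes called. All 4 of those run 2 libraries carried the peritoneal macrophage genes, and HFD+L-NAME replicate 5 also had the lowest protein-coding share (15.1%) and the fewest reads, so run and peritoneal genes cannot be told apart in this comparison. The difference between the runs was between -2.21 (Dapl1) and -1.50 (Il7r), the median of all genes being -1.09. Its adjusted p was 0.255 for each of the 7 (limma), with 0.0428% of tested genes called. The unadjusted p (limma) was 0.0146 to 0.0296 for all members except Satb1 (0.0652) and Il7r (0.0847). By that p 16.3% of tested genes were under 0.05. The part of these libraries in the pooled differences was not tested beyond these values. Without HFD+L-NAME replicate 5 alone, the genes lay between -1.16 and -0.05, and 2 of 7 had an unadjusted p under 0.05, beside 1.8% of all genes that were lower. The number was 3 of 7 without chow replicate 1, 2 or 4, beside 1.44%, 1.72% and 2.11% of all genes.

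**Figure D3:**
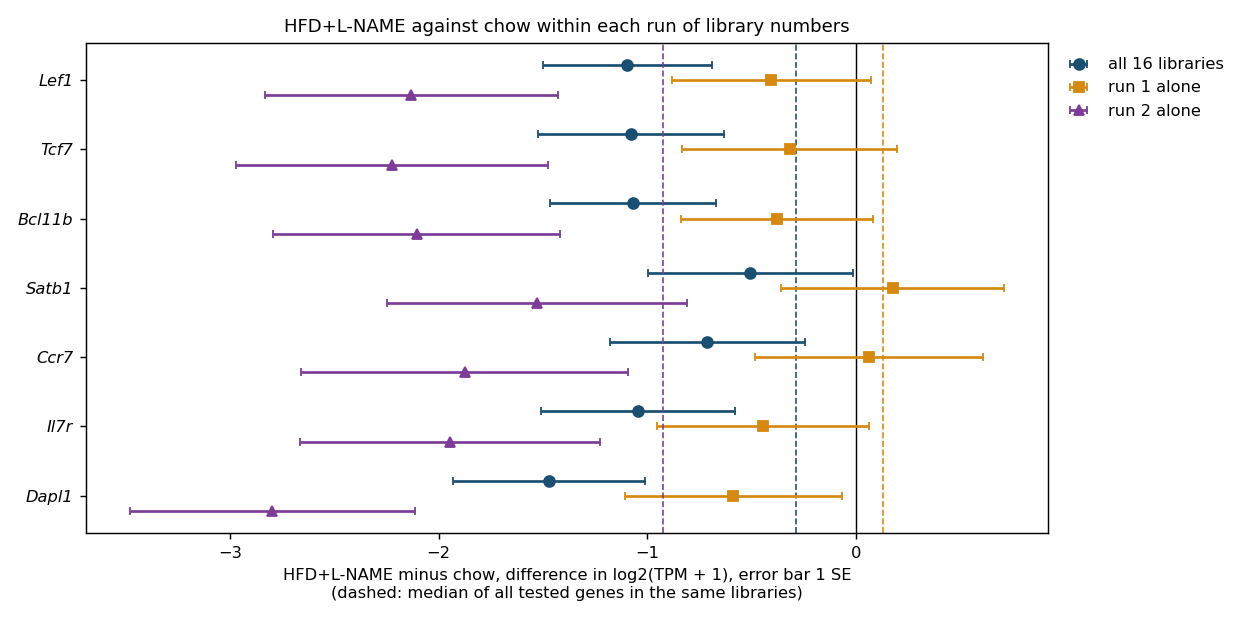
HFD+L-NAME minus chow for each gene over all libraries, within run 1 (3 against 3) and within run 2 (2 against 2), with bars of 1 SE and dashed lines at the median of all tested genes. Run 1 points lie between -0.59 and 0.17, and run 2 points between -2.80 and -1.53.

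The second comparison asks what NO2-OA changes on the same regimen. All 7 genes were higher on average with NO2-OA than in HFD+L-NAME, where 35.3% of all genes lay below 0. None passed the test (limma, adjusted p = 1 for each), as against 0.00611% of all genes. Il7r differed by 0.76 ± 0.45 (95% interval -0.16 to 1.67), Satb1 by 0.73 ± 0.47 (-0.24 to 1.70) and Tcf7 by 0.66 ± 0.43 (-0.22 to 1.54). Dapl1, Bcl11b, Lef1 and Ccr7 differed by 0.44, 0.36, 0.33 and 0.22, each with an interval that includes 0. None of the 7 had an unadjusted p under 0.05, against 0.947% of all genes in either direction, 0.483% of them higher and 0.464% lower, and none lay at -1 or lower, against 0.336%. The intervals of the 7 together reach from -0.70 to 1.70. The count of members at an unadjusted p under 0.05 and higher was 2 when either replicate 2 or replicate 4 of HFD+L-NAME was left out (1.36% of all genes in each fit) and 2 (Il7r and Satb1) under median of ratios scaling (1.79%). It was 3 (Tcf7, Il7r and Satb1) with limma-voom on recovered reads (1.45%) and 4, with Ccr7, under library quality weights (12.9%). Groups overlapped for every gene, with 0.0183% of tested genes higher without overlap and 0.0183% lower. Within run 1 (5 against 3 libraries) the values for Lef1, Ccr7 and Bcl11b turned to -0.04, -0.04 and -0.0033, and the 7 lay between -0.04 and 0.32. Without HFD+L-NAME replicate 5 they lay between 0.02 and 0.35. Markers of other cells also differed in this comparison. The peritoneal macrophage gene Alox15 lay at -2.99 ± 1.23, the 4 platelet genes all lay below 0 (median -0.50), and the 5 NK cell genes (median 0.36) and the 3 tested red cell genes (median 0.68) all lay above 0. Their part in the values of the 7 was not tested.

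In the third comparison, which shares its chow libraries with the first, 6 of the 7 genes were lower on average in the NO2-OA group than in chow and Satb1 was higher. None passed the test (limma, adjusted p = 0.977 for each), nor did any other gene (0%), while 458 genes (2.8%) had an unadjusted p under 0.05. Dapl1 lay at -1.03 ± 0.44, the only member with an unadjusted p under 0.05 and the only one at -1 or lower. By these rules 2.37% and 0.721% of all genes were lower, and 0.428% were higher by the first. Lef1 and Bcl11b were at -0.76 ± 0.39 and -0.71 ± 0.38, Ccr7 at -0.49 ± 0.45, Tcf7 at -0.42 ± 0.43 and Il7r at -0.29 ± 0.45. Satb1 lay at 0.22 ± 0.47. The median of all genes was -0.20 and 82.7% of them lay below 0. Without overlap 0.263% of genes were lower and 0.0122% higher, and none of the 7 was among them. Within run 1 (5 against 3 libraries) the 7 lay between -0.58 (Dapl1) and 0.42 (Satb1) with Ccr7 at 0.0196, and 0 of 7 had an unadjusted p under 0.05. For Dapl1 that p was also 0.05 or higher without any 1 of chow replicates 1, 2 or 4 or replicates 1 or 5 of the NO2-OA group. Other settings added members: Lef1, Bcl11b and Dapl1 all had an unadjusted p under 0.05 and were lower under median of ratios scaling (1.85% of all genes), protein-coding scaling (3.1%), limma-voom (2.11%), a fit of the compared groups only (3.56%), without the libraries of low protein-coding share (3.53%) and without chow replicate 5 (3.15%). Without chow replicate 3 it was Bcl11b and Dapl1 (3.65%), without replicate 3 of the NO2-OA group Lef1 and Dapl1 (3.21%), and under quality weights all but Satb1 (21.2%). Quality weights gave Dapl1 and Bcl11b adjusted p-values of 0.0239 and 0.0423 (limma), among 115 genes. In the same comparison all 14 pan T cell genes lay below 0 (median -0.67), with Cd8b1 at -1.01 ± 0.42. The 3 tested red cell genes had a median of 1.88, with Alas2, an enzyme of haem synthesis, at 2.11 ± 0.96, and the 4 neutrophil genes a median of 1.28, with Ngp, a granule protein gene, at 2.27 ± 0.70. Alox15 lay at -2.80 ± 1.23. The part of these cells in the values of the 7 was not tested.

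Because T cell content could differ between libraries, each level was also divided by the summed TPM of Cd3d, Cd3e and Cd3g, the invariant chains of the T cell receptor complex. That sum was 95.6 ± 35.7 TPM (SD, n = 5) in chow, 45.7 ± 24.1 TPM (n = 5) in HFD+L-NAME and 54.3 ± 11.6 TPM (n = 6) with NO2-OA. Relative to it, Lef1 had close group means, at 0.325 ± 0.0297, 0.320 ± 0.0631 and 0.315 ± 0.0486, and its range over the 16 libraries shrank from 8.06-fold to 1.62-fold. Bcl11b had similar means as well, at 0.190 ± 0.0155, 0.188 ± 0.0543 and 0.188 ± 0.0273, its range shrinking from 10.1-fold to 2.28-fold. These ratios are a description and were not tested.

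Tcf7 over Cd3 was 1.27 ± 0.107 in chow (n = 5), 1.30 ± 0.152 in HFD+L-NAME (n = 5) and 1.58 ± 0.150 with NO2-OA (n = 6). The 6 NO2-OA libraries ran from 1.41 to 1.74, all above the medians of both other groups (1.23 and 1.35), although the highest chow library (1.45) and the highest HFD+L-NAME library (1.43) reached into their range. This did not hold with T cell receptor constant genes (Trac, Trbc1 and Trbc2) as the reference. There replicate 5 of the NO2-OA group (0.301) lay below the HFD+L-NAME median (0.304). The ratio of Lef1 to Tcf7 was 0.257 ± 0.0235 in chow, 0.246 ± 0.0345 in HFD+L-NAME and 0.200 ± 0.0323 with NO2-OA.

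Satb1 over Cd3 was 0.576 ± 0.150 in chow, 0.909 ± 0.346 in HFD+L-NAME and 1.13 ± 0.288 with NO2-OA. Of the 6 NO2-OA libraries 0 lay below the chow median of 0.485, and ranges overlapped. Il7r over Cd3 was 0.715 ± 0.192, 0.775 ± 0.328 and 0.976 ± 0.227 in the same order. Over the 16 libraries these ratios of Il7r and Satb1 went with the protein-coding share of TPM (Spearman's rho 0.60 and 0.52), while those of the other 5 genes had a rho between -0.16 and 0.10, and the part of this share in the group values was not tested. Within run 1, the log2 difference of the Satb1 group medians between NO2-OA and chow was 0.79, against 1.28 over all libraries.

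Ccr7 over Cd3 was 2.22 ± 0.543 in chow, 2.95 ± 0.684 in HFD+L-NAME and 2.64 ± 0.603 with NO2-OA. Dapl1 had its highest mean ratio in chow, at 0.183 ± 0.0429 against 0.127 ± 0.0466 in HFD+L-NAME and 0.141 ± 0.0366 with NO2-OA. For Dapl1, 4 of 5 HFD+L-NAME libraries and 5 of 6 NO2-OA libraries lay below the chow median of 0.172, and the ranges overlapped. Within run 1 the means were closer, at 0.156 ± 0.0149 (n = 3), 0.140 ± 0.0515 (n = 3) and 0.144 ± 0.0400 (n = 5), whereas in run 2, whose chow and HFD+L-NAME libraries all carry peritoneal macrophage genes, chow averaged 0.223 and HFD+L-NAME 0.109 (n = 2 each). The largest Dapl1 ratios came from chow replicate 2 (0.250) and replicate 3 of the NO2-OA group (0.204), the first of them a library with peritoneal macrophage genes.

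**Figure D4:**
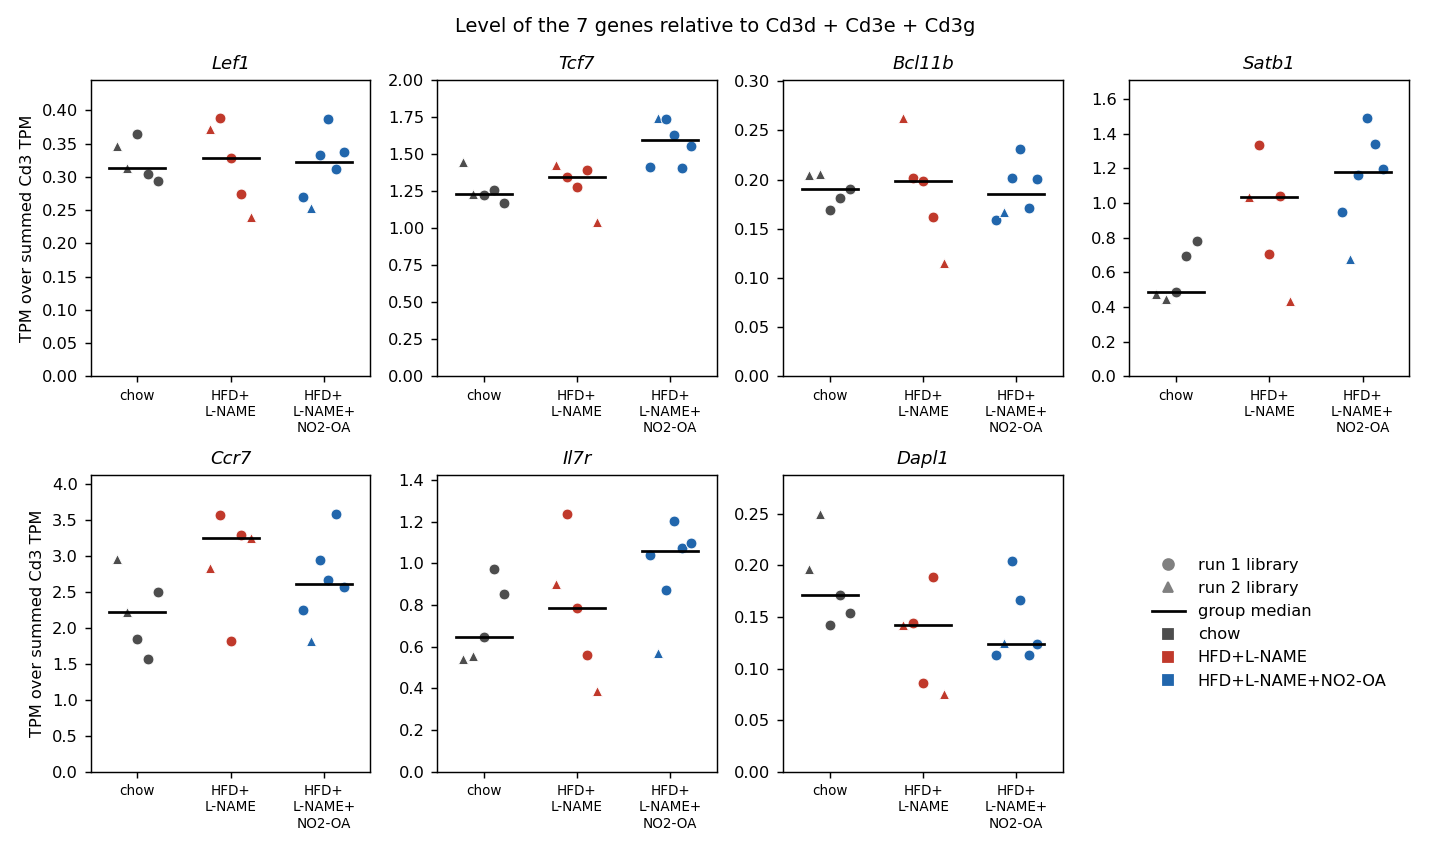
TPM of each gene divided by the summed TPM of Cd3d, Cd3e and Cd3g, in each library, by group, with circles for run 1, triangles for run 2 and a bar at the group median. Lef1 and Bcl11b have close group means, the 6 Tcf7 values with NO2-OA lie between 1.41 and 1.74, and Satb1 medians are 0.485, 1.03 and 1.18.

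Across the 16 libraries the 7 genes ranked the libraries much alike. Spearman's rho between pairs of them ran from 0.62 (Satb1 with Dapl1) to 0.97 (Bcl11b with Dapl1) with a median of 0.85 over 21 pairs, and from 0.59 to 0.95 within run 1. All libraries share a fixed TPM total, so these values are a description. Levels of most genes also differed between libraries: the median of ratios factor was smallest for replicate 5 of HFD+L-NAME (0.469) and largest for chow replicate 1 (1.557). How alike genes in general ranked the libraries was not tested, so the likeness is not shown to be particular to the 7. Lef1, Tcf7, Bcl11b and Dapl1 followed Cd3e at a rho of 0.93 to 0.96, and Il7r followed Cd4 at 0.93. Ccr7 followed Cd8b1 at 0.92 and Cd4 at 0.86. Its rho with Cd79a, a B cell receptor chain, was 0.85, against 0.67 (Satb1) to 0.83 (Bcl11b) for the other members. Within run 1 Satb1 had a higher rho with Cd79a (0.95) than Ccr7 (0.90). Over all 16 libraries Satb1 was the member least like Cd3e, at 0.64. Within run 1 that member was Il7r, at 0.69, with Satb1 at 0.79. With Lyz2 (monocytes and neutrophils), Ppbp (platelets) and Hba-a1 (red cells) the 7 had a rho between -0.37 and 0.21 over all 16 libraries. Within run 1 (11 libraries) all 7 ran against Ppbp, from -0.72 (Tcf7) to -0.41 (Ccr7), while their rho with Lyz2 and Hba-a1 lay between -0.28 and 0.20. The part of platelet RNA in the levels of the 7 was not tested.

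**Figure D5:**
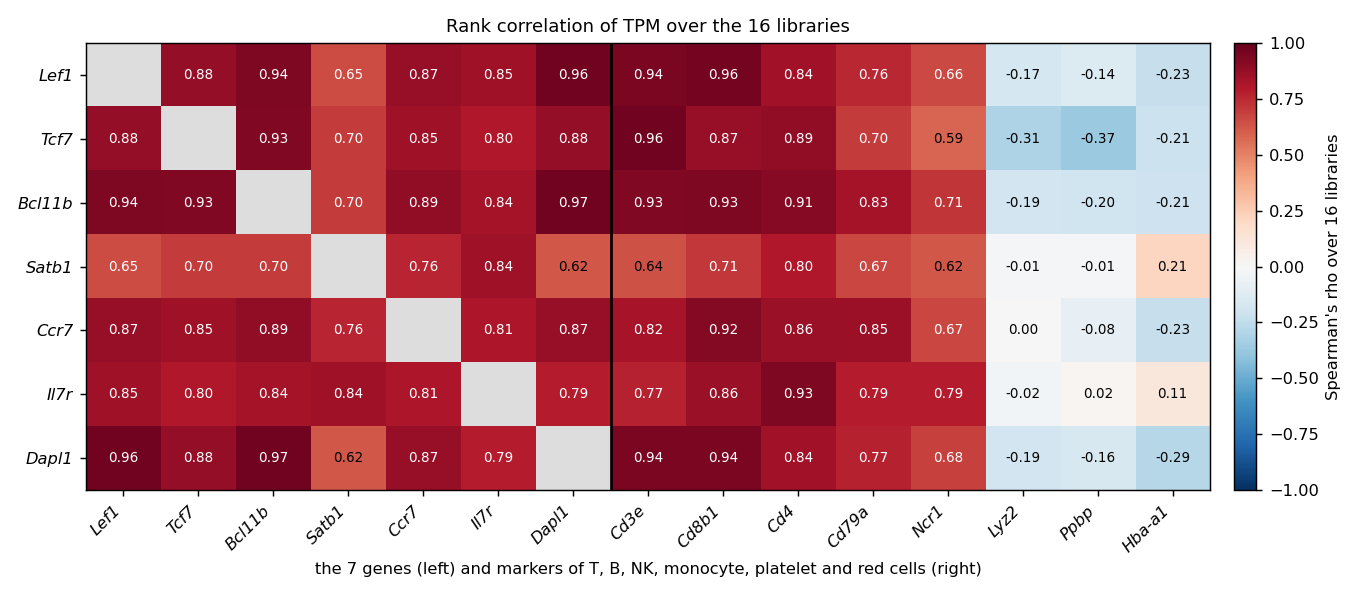
Spearman's rho of TPM over the 16 libraries between the 7 genes, and between each and markers of T cells (Cd3e, Cd8b1, Cd4), B cells (Cd79a), NK cells (Ncr1), monocytes and neutrophils (Lyz2), platelets (Ppbp) and red cells (Hba-a1). Values among the 7 genes run from 0.62 to 0.97, and those with Lyz2, Ppbp and Hba-a1 from -0.37 to 0.21.

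Among 7138 protein-coding genes with a mean of at least 5 TPM, the 3 most like each member by Spearman's rho over the 16 libraries were as follows. Lef1 was followed by Themis (0.97), Cd5 (0.96) and Nckap5l (0.96), the first 2 being T cell signalling genes. Tcf7 had Adgrl1 (0.97), Zap70 (0.97) and Cd3e (0.96) nearest, Zap70 being the kinase of the T cell receptor. Nearest to Bcl11b were Nckap5l (0.97), Bcl9l (0.97) and the T cell adaptor Skap1 (0.97), and to Dapl1 Cd3g (0.96), Rps24 (0.96) and Nckap5l (0.96). Il7r came with Atp1b1, Cd96 and Dtx3l at 0.96 each. Ccr7 lay nearest to Rrp1, Sp2 and Eif3a (0.99 each), none of which is restricted to T cells, and Satb1 nearest to Tspan13 (0.97), Cipc (0.97) and Aen (0.96). Genes near the other members, such as Rps24 and Nckap5l, are not all restricted to T cells either.

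Genes around the members were read from lists by role, with no gene of any list past the test over all genes in any comparison. Counts at an unadjusted p under 0.05 in HFD+L-NAME against chow stand beside 2.74% of all tested genes that were lower and 0.189% that were higher by that rule. The 14 pan T cell genes all lay below 0 in HFD+L-NAME against chow, with a median of -1.01 against -0.29 for all genes and 12 of 14 at an unadjusted p under 0.05. Trbc2 and Trbc1, constant regions of the T cell receptor beta chain, lay at -1.09 ± 0.43 and -1.22 ± 0.46, and Cd2, an adhesion receptor also found on NK cells, at -0.42 ± 0.44. Cd8b1, Cd8a and Cd4 lay at -1.27, -1.18 and -0.79. The median of the 7 genes was -1.07, beside the -1.01 of the pan T cell list. With NO2-OA against HFD+L-NAME the pan T cell median was 0.38, beside 0.44 for the 7.

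Other homing genes, which direct lymphocytes between blood and lymph nodes, gave 5 tested genes of 8, all below 0 in HFD+L-NAME against chow with a median of -0.55. Cxcr4, a chemokine receptor of many blood cells, lay at -0.40 ± 0.52 and Itgal, the LFA-1 integrin chain, at -0.10 ± 0.49. Ccl19 and Ccl21a, the ligands of Ccr7 made by lymph node stroma, were listed at 0 in all 16 libraries. Of 9 tested genes of interleukin-7 signalling, all 9 lay below 0, with a median of -0.37 and 1 at an unadjusted p under 0.05. Il2rg, the chain that pairs with Il7r, lay at -0.53 ± 0.43, the kinase gene Jak1 at -0.37 ± 0.44 and the survival gene Mcl1 at -0.18 ± 0.44.

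Partners of TCF-1 and LEF-1 had 8 of 10 genes tested and a median of -0.28 in HFD+L-NAME against chow, close to that of all genes, with Tle5, Ctnnb1 (beta-catenin) and Tle4 at -0.06, -0.27 and -0.44. Other regulators of T lineage and quiescence had a median of -0.41 over 17 genes, 2 of them at an unadjusted p under 0.05 and lower. Klf2, a factor that keeps naive T cells quiescent and circulating, lay at -0.62 ± 0.53, and the antiproliferative genes Btg1 and Btg2 at -0.58 ± 0.46 and -0.33 ± 0.43. Further naive T cell surface genes all lay below 0 (15 of 15, median -0.78, 5 at an unadjusted p under 0.05). The 3 most abundant of them, Treml2, Actn1 and Ms4a6b, lay at -0.0037 ± 0.59, -0.04 ± 0.59 and -0.66 ± 0.50, and neither Treml2 nor Actn1 is restricted to T cells. Genes of antigen-experienced T cells had a median of -0.16 over 16 genes, 12 of them below 0 and 4 above. They ran from -0.99 to 0.44, with 4 lower and 0 higher at an unadjusted p under 0.05. Itgb1, Ahnak and Cd44, the most abundant of these, lay at 0.44 ± 0.71, -0.13 ± 0.44 and 0.28 ± 0.44. None of them had an unadjusted p under 0.05, and none is restricted to T cells.

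Markers of other cells were read in the same comparison. All 5 NK cell genes lay below 0 (median -0.92, 5 of 5 at an unadjusted p under 0.05) and all 6 B cell genes did too (median -0.39, 0 of 6 at that p). The 5 monocyte genes had a median of 0.14, the 4 neutrophil genes 1.60 with 2 of 4 higher at an unadjusted p under 0.05, the 3 tested red cell genes 1.19 and the 4 platelet genes 0.39. Summed red cell levels ran from 572 to 30916 TPM in chow and from 4381 to 57011 TPM in HFD+L-NAME, and their part in the levels of the 7 genes was not tested. Dendritic cell genes, of interest because mature dendritic cells carry Ccr7, had 2 of 6 genes tested. Their summed level was 1.86 to 6.60 TPM over all libraries, and Ccr7 stood at 59.3 TPM or more. Levels of different genes do not give shares of cells, and the part of dendritic cells in the Ccr7 level was not tested. The single tested gene of type 2 innate lymphoid cells, Rora, lay at -0.38 ± 0.33. Thymocyte and progenitor markers, Rag1, Dntt and Ptcra among them, were too low to test, with a summed level of 0.316 to 1.88 TPM over 4 genes, and Ptcra was at 0 in 6 libraries.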

How the data were processed

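Total RNA of thawed mouse PBMCs was sequenced from random-primed libraries made with a Polaris depletion step, per the labels' protocols. The authors deposited TPM values for 51179 genes in 16 libraries. Per the submitters' processing notes, bcl2fastq, Trim Galore, HISAT2 and featureCounts were used with the builds mm39 and hg38, whose versions and roles are not given in the sources used here. TPM divides each level by gene length and scales every library to 1 total, so abundant RNA of other cells or non-coding RNA lowers the rest.

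Groups came from the labels. A linear model with a coefficient for each group was fitted to log2(TPM + 1) with limma 3.58.1 in R 4.3.3 (trended variance, two-sided, Benjamini-Hochberg over 16365 genes reaching 1 TPM in 5 or more libraries), and the 7 genes were read from it. Whole read numbers were recovered from steps in the TPM values for 99.844% of detected genes within a tolerance of 0.001. The 51 genes without them are not in the library totals, which are therefore lower bounds. The fit was first tested on simulated data, with larger changes than those of the 7 genes and with genes varying independently. That test does not show how well the fit finds changes of the size seen here. The members and lists were chosen with earlier results of these data known. Named beside the 7 genes are up to 3 genes of highest mean TPM from each list, with Cd8b1, Cd8a and Cd4 as one such list, and for each member the 3 genes of most similar pattern. One gene that this rule names is not reported here. The alternatives tried were another pseudocount, no filter, other scalings, recovered reads (voom), quality weights, a replicate block, left-out libraries and runs, and, for the Cd3 ratios, T cell receptor constant genes as the reference. Tables and plots used Python 3.11.15, numpy 2.4.6, pandas 2.3.3 and matplotlib 3.10.9.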

Additional observations from a re-analysis of the deposited data

How the results depend on the processing

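Over 23 alternatives to each comparison, 157 of 161 values of the 7 genes stayed below 0 in HFD+L-NAME against chow and 153 of 161 stayed above 0 in the NO2-OA group against HFD+L-NAME. These counts do not measure stability. Fits without a filter or of the compared groups only cannot change the values. Neither can the replicate block or the run term in HFD+L-NAME against chow, and many other alternatives left out 1 library only. In HFD+L-NAME against chow, Ccr7 and Satb1 turned to 0.0621 and 0.17 in run 1 alone and, with the same chow and HFD+L-NAME libraries, without the peritoneal macrophage libraries. In the second comparison, of NO2-OA with HFD+L-NAME, Lef1, Ccr7 and Bcl11b turned to -0.0426, -0.0425 and -0.0033 in run 1 alone. Lef1, Ccr7, Bcl11b and Dapl1 turned to -0.0855, -0.13, -0.0199 and -0.0064 without the peritoneal macrophage libraries, and Ccr7 to -0.019 without HFD+L-NAME replicate 3. In the third, of NO2-OA with chow, Ccr7 turned to 0.0196 in run 1 alone. The cause was not tested.

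The number of genes called over the whole table was 1, 1 and 0 in the 3 comparisons, in the order above. It became 0 in the first without a filter, and 0 in both the first and the second under median of ratios scaling, protein-coding scaling, voom on recovered reads and without the 3 libraries of low protein-coding share. In the first it was 4 with only the compared groups fitted, 2 in run 1 alone, 2 without the peritoneal macrophage libraries and 113 in run 2 alone, a choice made after seeing the data. In the second it was 2 with a pseudocount of 0.1, 2 with a term for the run, 3 in run 1 alone and 2 without the peritoneal macrophage libraries, and in the third 1 in run 1 alone. Quality weights called 2821, 460 and 115 genes. Median of ratios scaling also moved the balance of genes at an unadjusted p under 0.05: lower and higher shares were 2.21% and 1.75% in the first comparison, against 2.74% and 0.189%, and 1.85% each in the third, against 2.37% and 0.428%. Leaving out each library gave 0 to 2, 0 to 4 and 0 to 1. Apart from the weights, where 6 of the 7 genes were called in the first comparison and 2 in the third, and Dapl1 in run 2 alone, no alternative called a member. Of 308 alternative values of the log2 differences in Cd3 ratio, 304 moved by less than 1 SD between libraries, pooled over the compared groups, and 4 moved further. Most of these alternatives left out 1 library only. With so wide a limit the count cannot show how stable the ratios are.

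Replicate numbers did not pair the libraries: of 15 pairs with the same number 3 had correlated deviations above 0.1, from -0.51 to 0.51. With the replicate block the counts stayed at 1, 1 and 0, and the 7 genes in HFD+L-NAME against chow lay between -1.47 and -0.51, as without it. That range was fixed by the design, since chow and HFD+L-NAME hold the same replicate numbers once each. Depth limits Dapl1 most, with 7 to 133 reads.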
